A study of Mus musculus with 68 samples.

Results

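The genes described here are the translation initiation factors and their regulators, which choose the start codon, deliver the initiator tRNA and recruit mRNA to the ribosome. A list of 40 genes was looked up by Ensembl identifier in the expression tables of mouse embryonic fibroblasts (MEFs). All 40 were found among the 13197 genes of the founder tables and among the 12803 genes of the F1 tables. They were sorted by complex into 4 scanning and start-site factors, 3 genes of eIF2 and Eif2a, 5 subunits of eIF2B, 13 of eIF3, 7 of eIF4F and its helpers, 3 relatives of eIF4 subunits, 2 4E binding proteins, Eif5a with Eif6, and Ppp1r15b.

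MEFs of the 8 founder strains of the Collaborative Cross and of 5 F1 crosses were treated for 4 h with tunicamycin (TM) at 2 ug/ml or with 0.1% DMSO as the control. TM blocks N-linked glycosylation, so that misfolded proteins accumulate in the endoplasmic reticulum (ER). The founder strains were 129S1Sv/ImJ (129), A/J (A), C57BL/6J (B6), CAST/EiJ (CAST), NOD/ShiLtJ (NOD), NZO/H1LtJ (NZO), PWK/PhJ (PWK) and WSB/EiJ (WSB). The F1 crosses, named x129, xCAST, xNOD, xNZO and xWSB, all had a B6 mother and a father of the strain in the name. Of the 68 libraries, 40 came from founders and 28 from F1 crosses, with 2 or 3 per genotype and treatment: A, PWK, x129, xNZO and xWSB had 3 of each, B6 and CAST 2 of each, 129, NOD, NZO, WSB and xCAST 2 control and 3 TM, and xNOD 3 control and 2 TM. The MEFs of a genotype were a mix from several female embryos of 1 litter, so replicates are treated wells of 1 cell stock and p-values measure only the spread between them.

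Initiation begins when eIF2, loaded with GTP and the initiator tRNA, joins the small ribosomal subunit together with eIF1, eIF1A, eIF3 and eIF5. The eIF4F complex (the cap-binding protein eIF4E, the scaffold eIF4G and the helicase eIF4A) brings in the mRNA, and 4E binding proteins hold eIF4E away from eIF4G when mTOR is inactive. After start codon recognition eIF5 triggers GTP hydrolysis, eIF5B joins the large subunit, and eIF2B recharges eIF2 with GTP. ER stress acts on this step through PERK (Eif2ak3), a kinase that phosphorylates the alpha subunit of eIF2, which then blocks eIF2B and slows general translation. The phosphate is removed by protein phosphatase 1 with a targeting subunit that is either stress-induced (GADD34, Ppp1r15a) or constitutive (CReP, Ppp1r15b).

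Expression is given as TMM-scaled CPM, which counts a gene's reads against the size of its library after TMM and takes no account of transcript length. Founder libraries held between 7091923 and 21530282 reads on genes (median 11774876) and F1 libraries between 6442976 and 29528457 (median 13025117), and the founder median was lower with TM (10453968) than in controls (14072068). The ER chaperone gene Hspa5 (log2 fold change 2.82 over the founders), Ddit3 (3.90) and Atf4 (1.21) rose with TM. All 7 fibroblast markers were detected in every group, with summed values of 10500 to 44950, against at most 59.7 for myeloid, 21.96 for endothelial and 132 for epithelial markers. Several initiation factors stood apart in single libraries. The median deviation of the 40 genes from their founder means was 0.18 on the log2 scale in NOD control replicate 1, 0.16 in CAST control replicate 1 and 0.13 in A control replicate 1, against a median of -0.064 over the 18 founder controls. In TM replicate 2 of A it was 0.40, the highest of the 22 founder TM libraries.

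Over the founder strains, 17 of the 40 genes were raised by TM and 3 were lowered at an adjusted p below 0.01 (limma, mean of the strains' log2 fold changes, adjusted over all genes), whatever their fold. Among all genes 20.5% were raised and 21.9% lowered, against 42.5% and 7.5% of the initiation factors. Their median log2 fold change was 0.066, beside -0.037 over all genes. In the F1 crosses 12 were raised and 4 lowered, against 16.9% and 18.7% of all genes, with a median of 0.11 beside -0.04. The 40 genes were chosen with earlier results of these data known, so these shares are a description and not a test. The 12 genes raised in the F1 crosses were all among the 17 raised in the founders, and the 3 lowered in the founders were lowered in both. Eif1, Eif2s1, Eif4g2, Eif4ebp1 and Ppp1r15b were called in the founders alone and Eif3l in the F1 crosses alone. Some missing F1 calls depended on single libraries. Eif2s1 passed the F1 test without x129 TM replicate 2 (adjusted p = 0.00821) or xCAST TM replicate 3 (0.00944). Ppp1r15b passed it without xWSB control replicate 3 (0.00877) and Eif6 without xWSB control replicate 1 (0.00813). The sets were normalized separately, and a difference between the sets was not tested. Most changes were small. Only Eif4a2, Eif2s2, Eif5 (raised) and Eif4ebp2 (lowered) passed 1.5 fold in the mean of the founders, and the same 4 genes in the mean of the F1 crosses. Past that fold 6.04% of all genes were raised and 5.41% lowered in the founders and 4.95% and 5.54% in the crosses. Fewer cells of one kind and less RNA per cell cannot be told apart in such bulk samples.

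**Figure D1:**
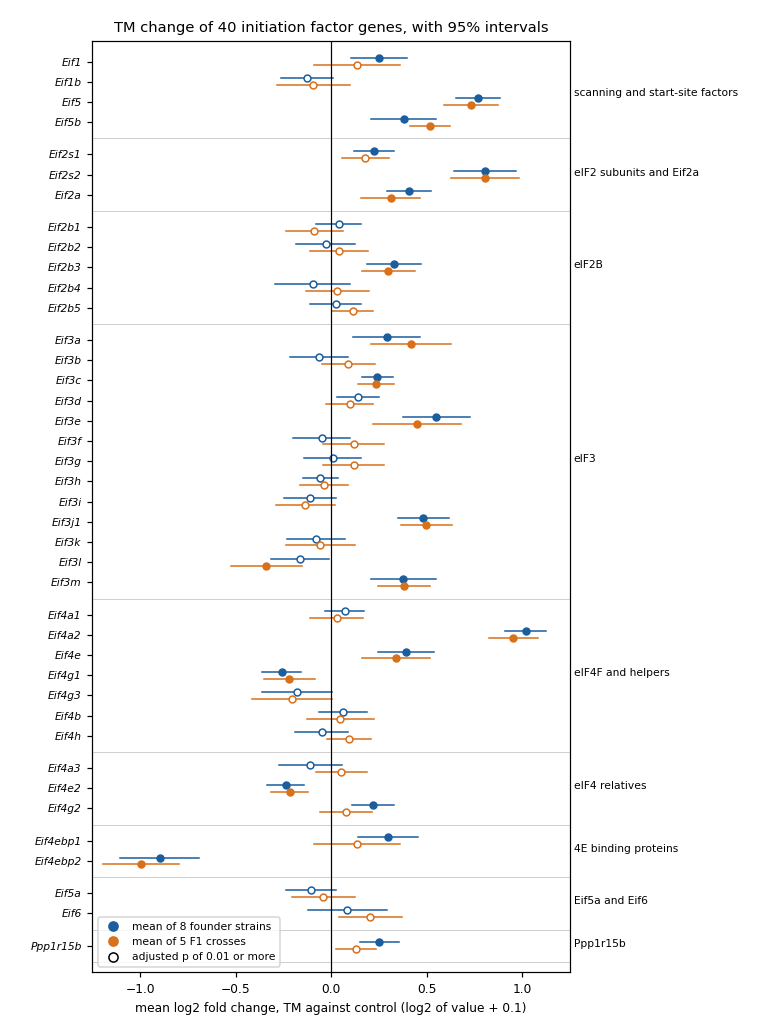
Mean log2 fold change (TM against control, on log2 of value + 0.1) of the 40 genes over the 8 founder strains (blue) and the 5 F1 crosses (orange), with 95% intervals as lines and filled points for an adjusted p below 0.01. Most points lie within 0.5 of 0, and Eif4a2 (1.02 and 0.95) and Eif4ebp2 (-0.90 and -0.996) mark the opposite ends.

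The promoters of the 4 genes that passed 1.5 fold are printed because these genes moved most, and because ER stress is known to act through sequence elements near the start of its target genes. RefSeq promoter sequences (GRCm38.p6) were matched for 32 of the 40 genes and read over 250 bases upstream of the RefSeq start, on both strands. The RefSeq start can differ from the gene start given elsewhere here. The windows of Eif4a2, Eif2s2 and Eif5 reach into the gene as given here, and the GC box of Eif5 nearest the RefSeq start lies within it. No promoter of the 32 held the ER stress response element (share of all 27025 promoters, 0.122%), the ATF4-type element TGATGNAA (3.53%) or the cAMP response element TGACGTCA (1.62%). The GC box GGGCGG was in 22 of 32 (all promoters, 32.9%), the CCAAT box, which overlaps the ER stress response element, in 8 (34.5%), the E-box CACGTG in 6 (6.05%) and the NRF1 element in 4 (3.86%). A match is a description of the letters, and no match says only that these letters are not in the window. The sequences are given 5′ to 3′ in the direction of the gene, in lower case, with GC boxes (or their complement) in capitals.
Eif4a2, chr16:23107218-23107467 (plus strand): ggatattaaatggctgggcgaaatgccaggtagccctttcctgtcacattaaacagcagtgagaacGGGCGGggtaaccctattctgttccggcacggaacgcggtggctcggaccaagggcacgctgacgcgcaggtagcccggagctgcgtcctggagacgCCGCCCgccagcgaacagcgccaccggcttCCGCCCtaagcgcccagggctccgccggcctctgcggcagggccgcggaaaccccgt
Eif2s2, chr2:154892907-154893156 (minus strand): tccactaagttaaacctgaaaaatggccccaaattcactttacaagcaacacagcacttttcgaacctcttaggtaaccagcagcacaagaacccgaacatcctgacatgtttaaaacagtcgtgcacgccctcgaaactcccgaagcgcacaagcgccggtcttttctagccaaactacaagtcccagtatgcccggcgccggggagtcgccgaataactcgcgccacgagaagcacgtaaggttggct
Eif5, chr12:111537851-111538100 (plus strand): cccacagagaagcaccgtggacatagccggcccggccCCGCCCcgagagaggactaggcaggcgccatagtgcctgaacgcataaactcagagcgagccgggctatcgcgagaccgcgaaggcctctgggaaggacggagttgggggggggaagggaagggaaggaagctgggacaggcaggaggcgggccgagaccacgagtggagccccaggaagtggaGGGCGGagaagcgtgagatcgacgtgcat
Eif4ebp2, chr10:61452670-61452919 (minus strand): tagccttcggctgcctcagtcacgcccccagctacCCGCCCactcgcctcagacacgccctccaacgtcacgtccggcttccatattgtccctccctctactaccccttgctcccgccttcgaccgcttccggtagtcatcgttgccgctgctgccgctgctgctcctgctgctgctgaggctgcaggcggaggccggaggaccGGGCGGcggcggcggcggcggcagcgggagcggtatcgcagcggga

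Eif4a2 had 3 GC boxes, Eif5 and Eif4ebp2 had 2 each, and Eif2s2 held none of the elements searched.

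The TM change was correlated with the GC content of the transcripts, among the initiation factors and among all genes. GC content was taken from the longest annotated transcript of a gene. For some members, among them Eif3e, Eif3m, Eif2s2, Eif2a and Eif4a1, that transcript is longer than the exons used for levels per kilobase. Which form was expressed was not tested. Over the 40 genes the correlation of the founder mean with GC content was r = -0.73 (Spearman's rho = -0.73) and that of the F1 mean r = -0.61 (rho = -0.60). Over all genes with a mean value of at least 10 it was r = -0.46 in the founders (8625 genes) and r = -0.37 in the crosses (7940 genes). These correlations are across genes that share the same libraries and are given as a description. The 3 initiation factors below 40% GC (Eif2s2, Eif3e and Eif3m) had a median log2 fold change of 0.55, where all 462 genes below 40% had 0.36. Between 40% and 45% the 9 members had 0.39 and all genes 0.21, between 45% and 50% the 10 members 0.055 and all genes 0.029, and between 50% and 55% the 12 members -0.092 and all genes -0.11. The 6 members at or above 55% had -0.04, above the range before, and all genes -0.22. In the crosses the members of the same 5 ranges had medians of 0.45, 0.42, 0.074, -0.038 and 0.091, where all genes had 0.28, 0.17, 0.02, -0.10 and -0.18. The trend moved with treatment. For each library, the log2 deviation of each gene from the mean of the founder groups was correlated with GC content, over genes with a mean value of at least 10. This correlation, whose sign is relative to the founder mean, was negative in 18 of 22 founder TM libraries. Of 18 founder controls it was negative in 1, NOD control replicate 1. The part of GC content in the changes was not tested.

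When the libraries were corrected for GC content and length over all genes, 12 initiation factors were raised and 3 lowered in the founders, against 18.1% and 20% of all genes in that fit. Their median was 0.068, beside -0.036 over all genes. Of the 17 raised and 3 lowered without it, 9 and 2 kept their call. In the F1 crosses 14 were raised and 4 lowered with the correction, against 16.5% and 19.7% of all genes (median 0.066, beside -0.045), of which 8 and 3 were called without it. Eif5, Eif2s2, Eif2b3, Eif3c, Eif3j1 and Eif4a2 were raised and Eif4e2 and Eif4ebp2 lowered in both sets and under both fits. Called with the correction alone were Eif3d, Eif3g and Eif6 (raised) and Eif3i (lowered) in the founders, and Eif2b5, Eif3b, Eif3g, Eif4h, Eif6 and Ppp1r15b (raised) and Eif3i (lowered) in the crosses.

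**Figure D2:**
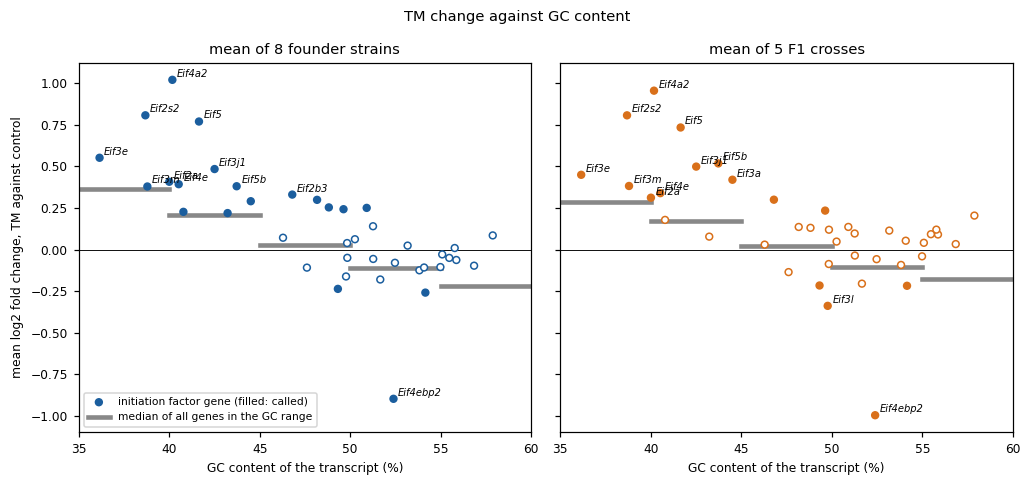
Mean log2 fold change of the 40 genes (points, filled at an adjusted p below 0.01) against the GC content of their transcripts in percent, for the founders (left) and the F1 crosses (right). Grey bars are the medians of all genes with a mean value of at least 10 in each GC range (the outer bars are drawn to the edge of the axis). The bars descend from left to right in both panels, the medians of the members do so up to 55% GC and are higher again above it, and Eif4a2, Eif2s2 and Eif5 lie above their bars while Eif4ebp2 lies far below.

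The largest rise was that of Eif4a2 (ENSMUSG00000022884, chromosome 16, 23107444 to 23114136, plus strand of GRCm38), one of the genes for the helicase of eIF4F. Eif4a2 ran from 161 through a median of 189.9 to 265 in the 18 founder control libraries and from 309.8 through 378 to 503 in the 22 founder TM libraries. No TM library of any strain overlapped the controls of that strain, as was the case for 4.12% of all genes. The mean log2 fold change was 1.02 ± 0.052 (SE, adjusted p = 4.3e-16), about 2.03 fold, and 0.95 ± 0.061 (SE, adjusted p = 1.66e-11) in the F1 crosses. In PWK the controls were at 184, 213 and 212 and the TM libraries at 432, 402 and 379. In CAST, with 2 libraries each, they were at 190.5 and 161 and at 367 and 309.8. The change was smallest in NOD (0.80) and largest in WSB, from 167 and 190.0 to 503, 379.8 and 357. The highest control was replicate 1 of NOD (265). Past 1.5 fold Eif4a2 was called within B6, CAST, PWK and WSB and within x129, xCAST, xNOD and xNZO. Its transcript has 40.2% GC, and with the correction the changes were 0.65 (adjusted p = 7.42e-16) and 0.64 (adjusted p = 6.94e-12).

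Eif4a1, which encodes the major form of the same helicase, did not pass the test in either set, at 0.071 (adjusted p = 0.242) in the founders and 0.03 (adjusted p = 0.738) in the crosses. Eif4a1 ran from 716 through a median of 840.1 to 1051 in the 18 founder control libraries and from 699 through 897 to 1122 in the 22 founder TM libraries, so the groups overlapped, as they did within each strain except WSB. The third family member, Eif4a3, whose product is a core subunit of the exon junction complex, was at -0.11 (adjusted p = 0.256) and 0.053 (adjusted p = 0.512). Reads shared between such close paralogs, or with processed copies of Eif4a1 or Eif1, would be split or lost by a rule on unique alignment, so their levels are uncertain.

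Eif4ebp2 (ENSMUSG00000020091, chromosome 10, 61428491 to 61452661, minus strand), a 4E binding protein that represses cap-dependent initiation, had the largest fall. Eif4ebp2 ran from 20.2 through a median of 33.6 to 41.9 in the 18 founder control libraries and from 9.75 through 17.8 to 25.4 in the 22 founder TM libraries. Its mean log2 fold change was -0.90 ± 0.10 (SE, adjusted p = 1.24e-08) in the founders and -0.996 ± 0.10 (SE, adjusted p = 1.61e-08) in the crosses, and it stayed called with the correction at -0.74 (adjusted p = 9.05e-10) and -0.81 (adjusted p = 1.72e-09). In WSB the controls were at 35.9 and 32.5 and the TM libraries at 9.75, 14.9 and 10.1, for a change within the strain of -1.58 ± 0.22 (SE, adjusted p = 0.00164) on the log2 scale. In PWK they were at 34.7, 31.9 and 31.5 against 13.4, 15.3 and 16.0. CAST and NOD showed the smallest falls, in CAST from 29.5 and 38.6 to 24.3 and 25.3. In all 5 crosses no TM library overlapped a control of the same genotype, and 3.32% of all genes lay so. The same held for Eif4ebp2 in 6 of 8 strains, and the share of all genes for as many strains is not given here. The exceptions were A, where control replicate 1 was at 20.2, and NOD, where control replicate 1 was at 22.3, and without both of these libraries the founder mean was -0.99. The fall passed 1.5 fold within B6, PWK and WSB and within x129, xCAST and xNOD.

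The other 4E binding protein gene, Eif4ebp1, is a known target of ATF4. It was raised in the founders by 0.30 ± 0.077 (SE, adjusted p = 0.00164) and was at 0.14 (adjusted p = 0.308) in the crosses. With the GC correction its founder value was 0.19 (adjusted p = 0.0126). Eif4ebp1 ran from 107 through a median of 159.8 to 186 in the 18 founder control libraries and from 123 through 186 to 341 in the 22 founder TM libraries. These ranges overlapped. Within B6, CAST, NOD, PWK and WSB every TM library lay above every control, and the share of all genes so separated in as many strains is not given here. In A the TM libraries at 162, 341 and 148 spread more than the controls at 107, 162 and 156. The change ran from -0.042 in NZO to 0.53 in A.

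**Figure D3:**
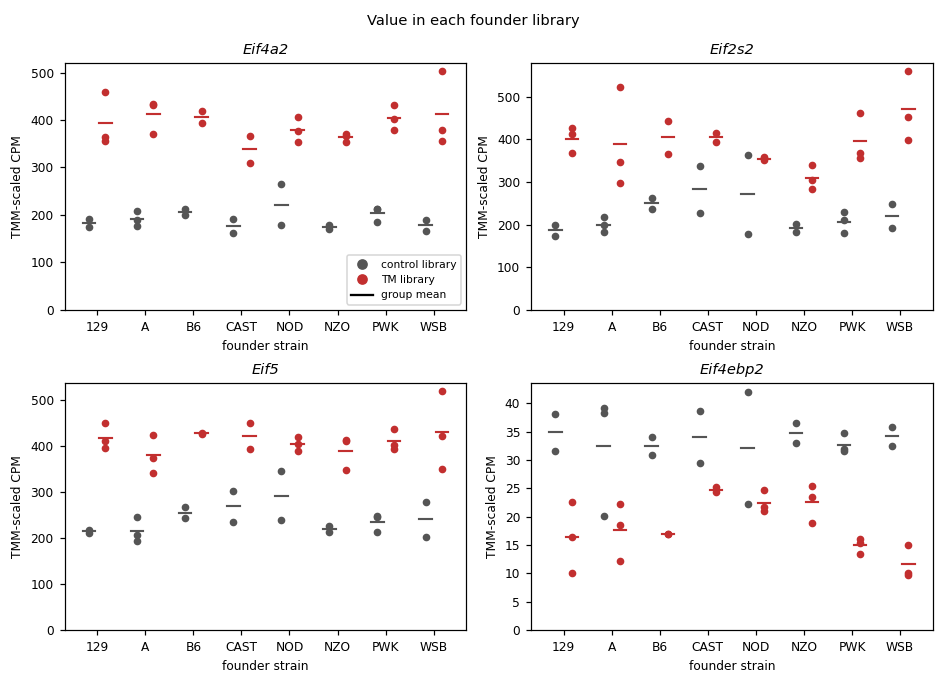
Value of Eif4a2, Eif2s2, Eif5 and Eif4ebp2 (TMM-scaled CPM, axes from 0) in each founder library, with control libraries in grey, TM libraries in red and bars for the group means. TM libraries lie above the controls of their strain in every strain for Eif4a2 and Eif5, in 7 of 8 for Eif2s2, and below them in 6 of 8 for Eif4ebp2, and NOD control replicate 1 lies toward the TM libraries in all 4 panels.

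All 3 genes of the eIF2 group were raised in the founders, where 20.5% of all genes were, and 2 of them in the crosses (16.9% of all genes). With the GC and length correction only 1 of the 3, Eif2s2, was raised in each set (18.1% and 16.5% of all genes). Eif2s2 (ENSMUSG00000074656, chromosome 2, 154871410 to 154892935, minus strand) encodes the beta subunit of eIF2, which binds eIF5 and eIF2B. Eif2s2 ran from 174 through a median of 206 to 364 in the 18 founder control libraries and from 283 through 368 to 559.8 in the 22 founder TM libraries. The log2 fold change was 0.81 ± 0.079 (SE, adjusted p = 7.58e-10) in the founders and 0.81 ± 0.086 (SE, adjusted p = 6e-08) in the crosses. In WSB the controls were at 192 and 248 and the TM libraries at 559.8, 453 and 399, and in PWK at 179.5, 211 and 231 and 462, 369 and 356. In NOD the groups overlapped, since the controls were at 364 and 178 and the TM libraries at 356, 359 and 350.5. The transcript has 38.7% GC, and with the correction the change was 0.44 (adjusted p = 1.54e-05) and 0.53 (adjusted p = 1.11e-05).

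Eif2s1, the gene of the alpha subunit that PERK phosphorylates, changed far less, by 0.23 ± 0.051 (SE, adjusted p = 0.000459) in the founders, and was at 0.18 (adjusted p = 0.017) in the crosses. Its rise was not kept with the GC correction, which gave -0.093 (adjusted p = 0.0621), below 0. Eif2a encodes a separate initiation factor that can deliver initiator tRNA without eIF2. Eif2a ran from 37.0 through a median of 43.9 to 53.5 in the 18 founder control libraries and from 43.9 through 56.5 to 79.0 in the 22 founder TM libraries. It rose by 0.41 ± 0.056 (SE, adjusted p = 4.33e-07) and 0.31 ± 0.074 (SE, adjusted p = 0.00133), and with the correction it was at 0.062 (adjusted p = 0.165) and 0.034 (adjusted p = 0.513). The gene of the gamma subunit, Eif2s3x, was at 0.09 (adjusted p = 0.221) and -0.018 (adjusted p = 0.846).

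Other genes of the pathway were taken from lists of 45, of which 42 were tested (Eif4e3, Eif4ebp3 and Eif3j2 are not analysed here). Of these 13 (30.95%) were raised and 7 (16.7%) lowered in the founders, against 20.5% and 21.9% of all genes. In the crosses 10 (23.8%) were raised and 6 (14.3%) lowered, against 16.9% and 18.7%. Of the 4 kinase genes, Eif2ak3 (PERK) rose by 0.55 ± 0.056 (SE, adjusted p = 2.01e-09) in the founders and by 0.53 ± 0.075 (SE, adjusted p = 4.87e-06) in the crosses. Eif2ak4 (GCN2, which senses uncharged tRNA) fell, with log2 fold changes of -0.25 (adjusted p = 0.000922) and -0.32 (adjusted p = 0.000367). Eif2ak1 did not pass the test, nor did Eif2ak2 (PKR) except with the correction, at -0.31 (adjusted p = 1.97e-05) and -0.34 (adjusted p = 0.000807). Among the phosphatase genes Ppp1r15a rose most, by 1.83 ± 0.045 (SE, adjusted p = 5.2e-24) and 1.75 ± 0.055 (SE, adjusted p = 2.19e-17), from a mean of 87.3 to 314 in the founders. In the founders the catalytic subunit gene Ppp1ca was at -0.18 (adjusted p = 0.00206) and, with the correction, -0.052 (adjusted p = 0.169). In the crosses Ppp1ca was called lowered without the correction and with it. Ppp1cb and Ppp1cc did not pass the test.

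Ppp1r15b (ENSMUSG00000046062, chromosome 1, 133131143 to 133139783, plus strand), the constitutive partner of that phosphatase, changed little. Ppp1r15b ran from 59.6 through a median of 109.9 to 138 in the 18 founder control libraries and from 66.4 through 129 to 195 in the 22 founder TM libraries. Its log2 fold change was 0.25 ± 0.049 (SE, adjusted p = 6.75e-05) in the founders and 0.13 (adjusted p = 0.04) in the crosses, and 0.30 (adjusted p = 6.16e-09) and 0.22 (adjusted p = 0.000157) with the correction. No initiation factor had a smaller unadjusted p for a difference between the founder strains in the TM change (0.0936), and its change ran from 0.044 in B6 to 0.54 in NZO. In NZO it went from 105 and 102 to 157, 169.9 and 128, and in B6 from 131 and 121 to 131 and 129.

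Of the 5 subunits of eIF2B, the exchange factor that phosphorylated eIF2 inhibits, only Eif2b3 (gamma subunit) passed the test without the correction. That is 20% of them in each set, near the share of all genes raised (20.5% in the founders and 16.9% in the crosses). Eif2b3 ran from 30.0 through a median of 40.4 to 59.3 in the 18 founder control libraries and from 39.3 through 52.3 to 68.2 in the 22 founder TM libraries. It rose by 0.33 ± 0.069 (SE, adjusted p = 0.000189) in the founders and 0.30 ± 0.068 (SE, adjusted p = 0.000836) in the crosses, and kept its call with the correction, at 0.24 (adjusted p = 0.00915) and 0.24 (adjusted p = 0.00967). The remaining subunits lay between -0.10 (Eif2b4) and 0.039 (Eif2b1) in the founders and between -0.087 (Eif2b1) and 0.11 (Eif2b5) in the crosses. Eif2b5, the gene of the catalytic subunit, was at 0.024 (adjusted p = 0.788) and 0.11 (adjusted p = 0.0742), and its founder interval ran from -0.11 to 0.16.

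Eif5 (ENSMUSG00000021282, chromosome 12, 111538016 to 111546752, plus strand), which encodes the GTPase activator of eIF2, rose in every genotype. Eif5 ran from 193 through a median of 237 to 346 in the 18 founder control libraries and from 341 through 410.5 to 520.4 in the 22 founder TM libraries. The log2 fold change was 0.77 ± 0.057 (SE, adjusted p = 1.71e-12) in the founders and 0.73 ± 0.068 (SE, adjusted p = 7.44e-09) in the crosses, and 0.51 (adjusted p = 7.37e-11) and 0.54 (adjusted p = 6.4e-12) with the correction. No TM library overlapped a control of its genotype in the 8 strains and the 5 crosses, where Eif5, Eif5b, Eif2s2 and Eif4a2 were so separated in all crosses and 4.53% of all genes were. In B6 it went from 267 and 244 to 427 and 429 and in 129 from 218 and 211 to 449.9, 395 and 411. In xCAST it went from 154 and 175 to 305, 367 and 269.6.

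Eif5b encodes the GTPase that joins the large subunit. Eif5b ran from 128 through a median of 141 to 303 in the 18 founder control libraries and from 156 through 197 to 276 in the 22 founder TM libraries. It rose by 0.38 ± 0.084 (SE, adjusted p = 0.000339) in the founders and by 0.52 ± 0.051 (SE, adjusted p = 1.64e-08) in the crosses. The highest value of all was A control replicate 1, in a group at 303, 138 and 128. With the correction the founder change was 0.33 (adjusted p = 0.05) and the F1 change 0.55 (adjusted p = 7.41e-05). Eif5b passed 1.5 fold within WSB, from 133 and 165 to 276, 239 and 243, and within xNOD, from 116, 115 and 97.0 to 195 and 186.

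Eif1, which keeps start codon choice accurate, was raised in the founders by 0.25 ± 0.071 (SE, adjusted p = 0.00404) and was at 0.14 (adjusted p = 0.312) in the crosses. Without NOD control replicate 3 its founder adjusted p was 0.0118. Its paralog Eif1b was at -0.12 (adjusted p = 0.112) and -0.093 (adjusted p = 0.425). Of 11 other initiation genes found in the founder tables, 4 were raised and 0 lowered, against 20.5% and 21.9% of all genes. Eif1a, a gene of eIF1A, which works with eIF1 in scanning, rose by 0.89 ± 0.066 (SE, adjusted p = 1.88e-12) and its paralog Eif1ax was at 0.091 (adjusted p = 0.211). Denr, a reinitiation and ribosome recycling factor, rose by 0.56 ± 0.095 (SE, adjusted p = 1.26e-05) and its partner Mcts1 was at 0.36 (adjusted p = 0.0114). Eif1ad rose by 0.32 ± 0.047 (SE, adjusted p = 1.35e-06), and Ddx3x, a helicase that assists scanning, by 0.33 ± 0.072 (SE, adjusted p = 0.000263), which was 0.074 (adjusted p = 0.0513) with the correction.

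Of the 13 subunit genes of eIF3, the scaffold of the preinitiation complex, some were called and others not, and a difference between subunits was not tested. In the founders 5 were raised, 0 lowered and 8 did not pass the test, with a median log2 fold change of 0.0091. Among all genes 20.5% were raised and 21.9% lowered. In the crosses 5 were raised and 1 lowered, with a median of 0.12, against 16.9% and 18.7% of all genes. The raised genes were the same 5 in both sets: Eif3a, Eif3c, Eif3e, Eif3j1 and Eif3m. Eif3b, Eif3d, Eif3f, Eif3g, Eif3h, Eif3i and Eif3k passed the test in neither, and their founder values lay between -0.11 (Eif3i) and 0.14 (Eif3d). The calls depended on the fit. With the GC and length correction 4 were raised and 1 lowered in the founders, against 18.1% and 20% of all genes. Only 2 of those raised were also called without it. In the crosses 5 were raised and 2 lowered with the correction (all genes, 16.5% and 19.7%), of which 3 and 1 were called without it.

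Eif3e ran from 107 through a median of 133 to 231 in the 18 founder control libraries and from 123 through 207 to 303 in the 22 founder TM libraries. It had the largest eIF3 change in the founders, 0.55 ± 0.086 (SE, adjusted p = 3.31e-06), and rose by 0.45 ± 0.11 (SE, adjusted p = 0.00184) in the crosses. Its longest annotated transcript has the lowest GC content of the 40, 36.2%, but is 4123 bases long, where the exons used per kilobase add up to 1506. With the correction the changes of Eif3e were 0.10 (adjusted p = 0.18) and 0.11 (adjusted p = 0.361). Eif3m ran from 81.2 through a median of 101 to 166 in the 18 founder control libraries and from 113 through 137 to 219 in the 22 founder TM libraries. Eif3m, at 38.8% GC, rose by 0.38 ± 0.083 (SE, adjusted p = 0.000302) and 0.38 ± 0.065 (SE, adjusted p = 3.88e-05) without the correction and was at -0.054 (adjusted p = 0.569) and -0.0094 (adjusted p = 0.919) with it, below 0. It passed 1.5 fold within WSB, where the controls were at 81.2 and 99.4 and the TM libraries at 184, 139 and 155, and within xNOD, at 81.2, 81.1 and 70.8 against 144 and 118.

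Eif3j1 encodes a loosely bound subunit near the decoding site. Eif3j1 ran from 72.1 through a median of 91.1 to 155 in the 18 founder control libraries and from 99.0 through 130.1 to 169.8 in the 22 founder TM libraries. It rose by 0.48 ± 0.065 (SE, adjusted p = 3.03e-07) in the founders and 0.50 ± 0.065 (SE, adjusted p = 1.13e-06) in the crosses, and by 0.31 (adjusted p = 0.00114) and 0.40 (adjusted p = 4.77e-05) with the correction. In xNOD, where it passed 1.5 fold, it went from 68.0, 66.0 and 54.7 to 105 and 102. It has a near-identical copy, Eif3j2, which is not among the genes analysed here, so its reads may have been shared. Eif3c changed by only 0.24 ± 0.039 (SE, adjusted p = 5.09e-06) but with little spread, and kept its call with the correction, at 0.22 (adjusted p = 1.06e-06) and 0.22 (adjusted p = 7.84e-05). Eif3a, the largest subunit, rose by 0.29 ± 0.085 (SE, adjusted p = 0.00478), was at 0.18 (adjusted p = 0.131) with the correction, and had an adjusted p of 0.0117, 0.0102 and 0.0114 without CAST control replicate 3, NOD control replicate 3 or WSB control replicate 2.

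Without the correction Eif3l was the only eIF3 gene called lowered, at -0.16 (adjusted p = 0.0677) in the founders and, past the threshold, -0.34 ± 0.09 (SE, adjusted p = 0.00349) in the crosses. In the crosses it ran from 155 through a median of 189.6 to 215 in the 14 F1 control libraries and from 87.8 through 150.1 to 202 in the 14 F1 TM libraries. Without xNOD TM replicate 2 the F1 adjusted p was 0.0151, and without A control replicate 1 the founder adjusted p was 0.0093. Eif3d ran from 209.8 through a median of 252 to 318 in the 18 founder control libraries and from 216 through 272 to 410.5 in the 22 founder TM libraries. Eif3d, which can itself bind the cap of some mRNAs, was at 0.14 (adjusted p = 0.0307) in the founders at 0.14 (adjusted p = 0.00165) with the correction, and passed without A TM replicate 1 (adjusted p = 0.00897). In WSB the TM libraries, at 329, 313 and 342, lay above the controls, at 209.8 and 235, while in the other 7 strains the groups overlapped.

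Beside Eif4a2, Eif4e and Eif4g1 passed the test within eIF4F and its helpers, in opposite directions. Eif4e ran from 80.7 through a median of 98.8 to 147 in the 18 founder control libraries and from 92.3 through 139 to 187 in the 22 founder TM libraries. Eif4e, the cap-binding subunit, rose by 0.39 ± 0.072 (SE, adjusted p = 3.59e-05) in the founders and by 0.34 ± 0.087 (SE, adjusted p = 0.00257) in the crosses, and was at 0.13 (adjusted p = 0.103) and 0.16 (adjusted p = 0.115) with the correction. Eif4g1 ran from 989 through a median of 1107 to 1232 in the 18 founder control libraries and from 616 through 951 to 1111 in the 22 founder TM libraries. Eif4g1, the main scaffold, fell by 0.26 ± 0.05 on the log2 scale (SE, adjusted p = 6.43e-05), and in all 8 strains every TM library lay below every control of the strain, as for 2.99% of all genes. With the correction it was at -0.057 (adjusted p = 0.113) and, in the crosses, -0.0025 (adjusted p = 0.964). Its F1 change was -0.22 ± 0.064 (SE, adjusted p = 0.00764), and the adjusted p was above 0.01 without any 1 of 17 of the 28 F1 libraries, up to 0.0338 without xNOD TM replicate 1. Eif4g3, Eif4b and Eif4h did not pass the test, at -0.18, 0.062 and -0.05 in the founders.

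Eif4e2 ran from 93.9 through a median of 106 to 138 in the 18 founder control libraries and from 72.5 through 88.8 to 156 in the 22 founder TM libraries. Among the relatives of eIF4 subunits, Eif4e2 (4EHP, a cap-binding protein that does not bind eIF4G and acts as a repressor) fell, with log2 fold changes of -0.24 ± 0.047 (SE, adjusted p = 0.00011) in the founders and -0.22 ± 0.047 (SE, adjusted p = 0.000591) in the crosses, and kept its call with the correction, at -0.26 (adjusted p = 1.53e-05) and -0.23 (adjusted p = 0.000124). Eif4g2 (DAP5, a scaffold that lacks the binding site for eIF4E) was raised in the founders by 0.22 ± 0.055 (SE, adjusted p = 0.00125) and was at 0.078 (adjusted p = 0.343) in the crosses. Of 8 controllers of eIF4F, 3 were raised and 3 lowered in the founders, against 20.5% and 21.9% of all genes. With the correction 1 and 2 of these kept their call. In the crosses 1 was raised and 3 were lowered, against 16.9% and 18.7% of all genes. Mknk2, a kinase of eIF4E, was at -1.004 ± 0.084 (SE, adjusted p = 2.75e-11), Mtor at -0.43 ± 0.089 (SE, adjusted p = 0.000161) and its partner Rptor at -0.33 ± 0.066 (SE, adjusted p = 8.89e-05), which was at -0.04 (adjusted p = 0.288) with the correction. Rps6kb1, Pdcd4 and Mknk1 were raised by 0.31, 0.20 and 0.15, and with the correction Rps6kb1 was at 0.019 (adjusted p = 0.747) and Pdcd4 at -0.069 (adjusted p = 0.378). Of 5 genes of poly(A) binding protein and its partners, Paip1 (0.43) and Paip2b (0.22) were raised in the founders, where 20.5% of all genes were. With the correction Paip1 was at 0.037 (adjusted p = 0.567).

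Eif5a, the hypusinated factor now known for its part in elongation, and Eif6, which keeps the subunits apart, did not pass the test. They were at -0.11 (adjusted p = 0.174) and 0.085 (adjusted p = 0.496) in the founders, and Eif6 was at 0.25 (adjusted p = 0.000245) with the correction. Of 10 genes of elongation and release, 2 were raised (Etf1, the release factor, 0.46, and Eef1e1, 0.33) and 2 lowered (Eef2, -0.17, and its kinase Eef2k, -0.30) in the founders, near the shares of all genes (20.5% and 21.9%). With the correction Etf1 alone of these 4 kept its call, at 0.28 (adjusted p = 5.53e-08).

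Pairs of related genes were compared within each library, as the log2 ratio of their values, which no scaling of the library can change. The ratio was tested with a two-sided permutation test (100000 permutations of treatment within genotype, adjusted over 12 tests, 6 pairs in 2 sets, with a threshold of 0.05), for which 1e-05 is the smallest p that can be given. The log2 ratio of Eif4a2 to Eif4a1 went from -2.14 in founder controls to -1.19 with TM, a difference of 0.95 ± 0.026 (SE over 8 strains, adjusted p = 1.71e-05). The difference was 0.93 ± 0.064 (SE over 5 crosses, adjusted p = 1.71e-05) in the crosses, and no ratio with TM overlapped a control ratio of its genotype in any of the 13 genotypes. Per kilobase of exon, Eif4a2 went from 0.126 to 0.243 of the level of Eif4a1 in the founders.

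The ratio of Eif4ebp1 to Eif4ebp2 rose by 1.196 ± 0.20 (SE over 8 strains, adjusted p = 1.71e-05) and by 1.13 ± 0.19 (SE over 5 crosses, adjusted p = 4.5e-05). Its founder change ran from 0.57 in NOD to 2.09 in WSB. Per kilobase Eif4ebp1 was at 13.6 times Eif4ebp2 in founder controls and at 31.1 times with TM. The ratio of the repressive Eif4e2 to Eif4e changed by -0.63 ± 0.044 (SE over 8 strains, adjusted p = 1.71e-05) and by -0.56 ± 0.09 (SE over 5 crosses, adjusted p = 1.71e-05), lower with TM in all 13 genotypes. Eif4g2 rose relative to Eif4g1 by 0.48 ± 0.041 (SE over 8 strains, adjusted p = 1.71e-05) and by 0.30 ± 0.083 (SE over 5 crosses, adjusted p = 0.00487), with the smallest F1 difference, 0.00242, in xWSB. Eif1b fell relative to Eif1, at -0.38 ± 0.052 (SE over 8 strains, adjusted p = 1.71e-05) and -0.23 ± 0.063 (SE over 5 crosses, adjusted p = 0.0115). The ratio of Eif4g3 to Eif4g1 did not pass the test, at 0.079 ± 0.043 (SE over 8 strains, adjusted p = 0.141) and 0.013 ± 0.083 (SE over 5 crosses, adjusted p = 0.826). In each of the 5 pairs that passed, the gene that rose relative to its partner has the lower GC content (40.2% against 46.3%, 48.2% against 52.4%, 40.5% against 49.3% and 43.2% against 54.1%, and 50.9% against 53.8% for Eif1 and Eif1b). The part of GC content in the ratios was not tested.

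**Figure D4:**
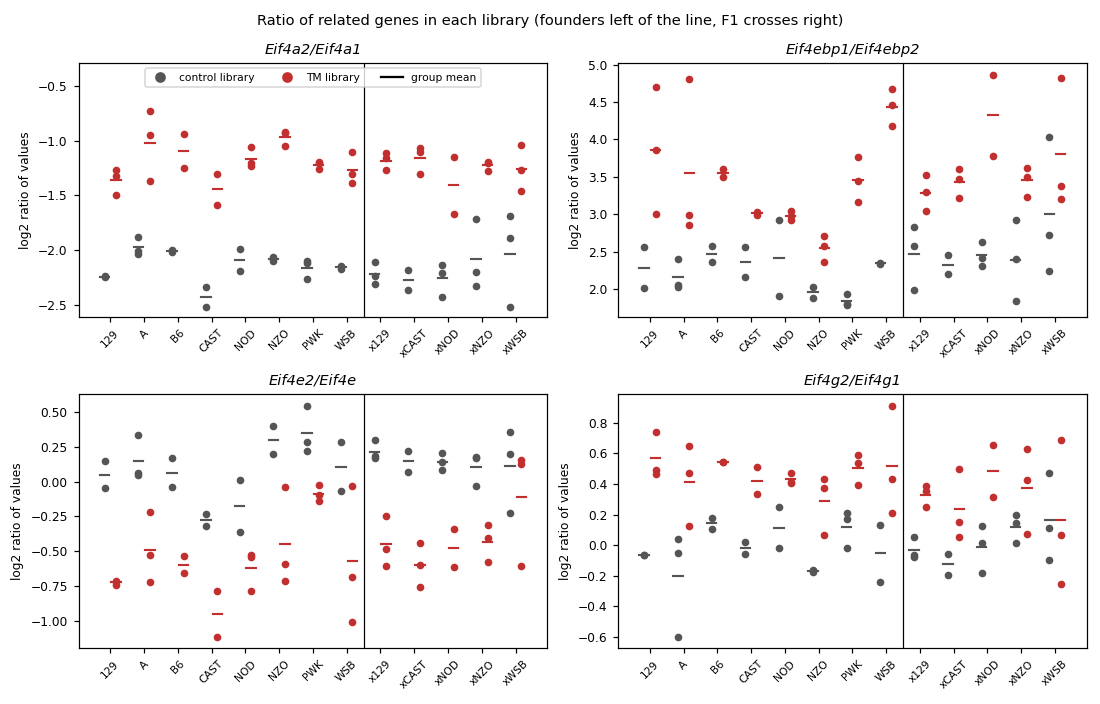
Log2 ratio of the values of 4 pairs of related genes in each library, by genotype, with controls in grey, TM in red, bars for group means, founder strains left of the line and F1 crosses right of it. The Eif4a2 to Eif4a1 ratio is higher with TM in all 13 genotypes without overlap, and the Eif4e2 to Eif4e ratio is lower with TM in the mean of each genotype.

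Whether the TM change of an initiation factor differed between genotypes was tested as the strain by treatment interaction. None of the 40 genes passed in the founders or in the crosses (limma, adjusted p below 0.01, against 0.174% and 0.0547% of all genes), none had an unadjusted p below 0.05, and edgeR on the recovered reads also called 0. Founder strain changes of single members ran furthest apart for Eif4ebp2, from -1.58 in WSB to -0.44 in CAST. In 1 fit over the founder libraries the SE of 1 strain's change lay between 0.10 and 0.31 over the 40 genes, and for Eif4ebp2 between 0.26 and 0.31. Its range did not pass the test (unadjusted p = 0.117), so even a range of this size between strains was not detectable for this gene.

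Within single genotypes, 5 initiation factors were raised by at least 1.5 fold in at least 1 founder strain (Eif4a2, Eif2s2, Eif5, Eif5b and Eif3m) and 6 in at least 1 cross (the same 5 and Eif3j1), while Eif4ebp2 alone was lowered in both sets. In the founders B6 had 3 raised (of all genes, 5.04% were), CAST 1 (2.54%), PWK 3 (6.36%) and WSB 4 (2.85%). In 129, A, NOD and NZO, where 0.315%, 0.346%, 1.45% and 0.32% of all genes were raised past the threshold, no member was called. In the crosses x129 had 3 (4.88%), xCAST 3 (2.52%), xNOD 6 (3.69%), xNZO 2 (1.44%) and xWSB 0 (0.185%). Eif4ebp2 was the 1 member lowered in B6 (3.22% of all genes), PWK (4.3%), WSB (4.2%), x129 (1.36%), xCAST (1.2%) and xNOD (4.6%). None was lowered in 129 (0.00787% of all genes), A (0.00786%), CAST (0.478%), NOD (0.165%), NZO (0.0078%), xNZO (0.152%) or xWSB (0.0161%). A missing call in a genotype does not show a smaller change there, since Eif4a2 changed by 1.10 in 129 and 1.10 in A without a call.

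**Figure D5:**
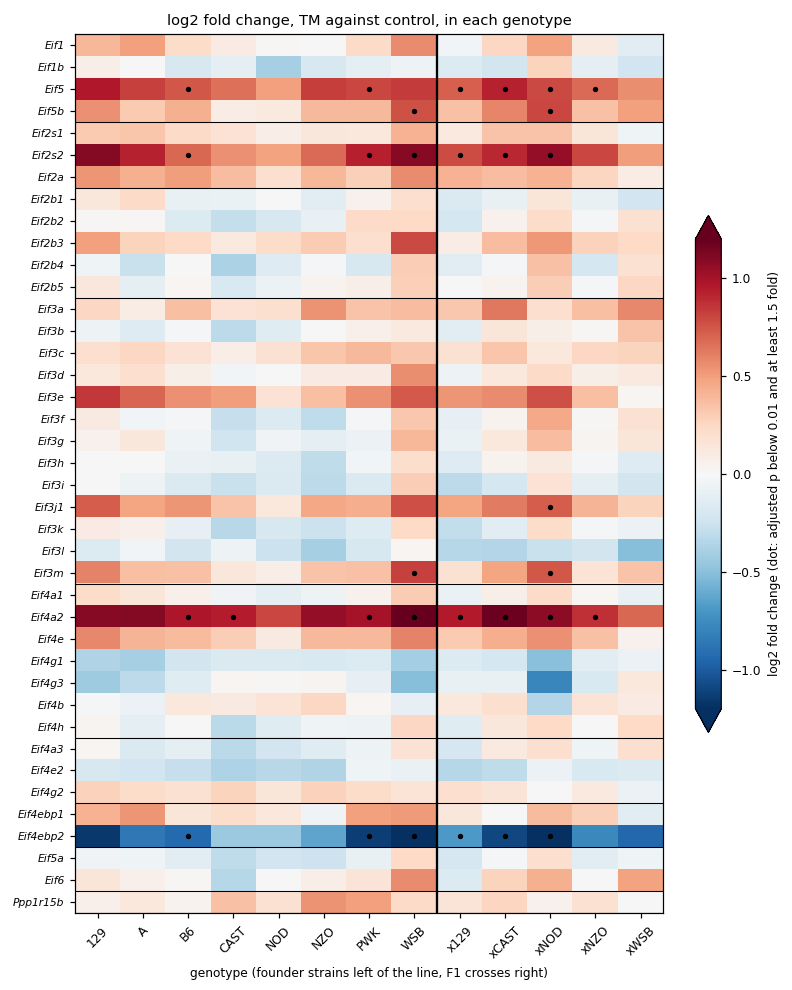
Log2 fold change (TM against control) of the 40 genes in each of 13 genotypes, grouped by complex, from blue (lower with TM) to red (higher), with colours that saturate at 1.2 in either direction and dots for an adjusted p below 0.01 with at least 1.5 fold. The rows of Eif4a2, Eif2s2 and Eif5 are red and that of Eif4ebp2 is blue in every column, while most rows of eIF2B and eIF3 are pale or change colour between columns.

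Few initiation factors were called for a difference in control level between strains, and a missing call does not show equal levels. 1 of the 40 genes differed between the 8 founder strains at an adjusted p below 0.01, where 37.2% of all genes did, and 1 between the crosses, where 24.8% did. It was Ppp1r15b in both (adjusted p = 1.98e-05 and 0.00526). WSB controls were at 59.6 and 68.5, below those of every other founder, and PWK controls at 119, 136 and 138, with 129 at 101 and 106, A at 107, 127 and 127, B6 at 131 and 121, CAST at 107 and 125, NOD at 107 and 113 and NZO at 105 and 102. The highest and the lowest founder mean differed by 2.05 fold (PWK against WSB), and WSB stayed lowest with TM, at 75.9, 83.4 and 66.4. In order of their control means the strains were WSB, NZO, 129, NOD, CAST, A, B6 and PWK, and apart from WSB against NZO and 129 against NOD, neighbours in this order overlapped. Among the crosses xWSB was lowest, with controls at 58.1, 69.9 and 82.0, against 95.7, 108 and 94.5 in x129. The F1 call was lost without x129 control replicate 2 (adjusted p = 0.0159), xCAST control replicate 3 (0.0105), xWSB control replicate 1 (0.039) or xWSB control replicate 2 (0.0217).

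Over the 40 genes the ratio of the highest to the lowest founder control mean had a median of 1.37 and ran from 1.09 (Eif4ebp2) to 2.05 (Ppp1r15b). The same ratio over all genes is not given here. Eif3j1 and Eif4e2 came next by adjusted p, at 0.0171 and 0.0393. Eif3j1 controls were highest in CAST (147 and 110.1) and lowest in 129 (79.5 and 76.2), and without A control replicate 1 (adjusted p = 0.00679) or NOD control replicate 3 (0.00115) Eif3j1 was called too. Without A TM replicate 2 so were Eif4e2 (adjusted p = 0.00965) and Eif4ebp1 (0.00426, against 0.114 with all libraries), and in the crosses Eif5b was without xWSB control replicate 2 (0.0088). Eif4e2 controls in PWK, at 138, 133 and 138, lay above all other founder controls, which ran from 93.9 to 114.

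Levels between genes can be compared only per length of exon. Per kilobase, Eif4a1 was the most abundant initiation factor in founder controls (477 TMM-scaled CPM per kilobase), followed by Eif5a (429.9), Eif1 (299) and Eif4g1 (184). Eif4ebp2 was the least abundant (5.79), below Eif2b3 (10.5) and Eif2b4 (11.8). The subunits of eIF3 ranged from 18.0 (Eif3j1) to 163 (Eif3i) per kilobase, and the subunits of eIF2B from 10.5 to 52.0 (Eif2b2). Eif4a2 was at 60.1, rising to 122 with TM.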

How the data were processed

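RNA of control and TM-treated MEFs was sequenced as single-end reads of 100 bp. According to the study's methods and the submitters' processing notes, reads were aligned with TopHat 1.4.1 to strain-specific genomes built on GRCm38, normalized with TMM in edgeR, and normalized again after the authors dropped libraries that clustered away from their own condition. The counting tool is not given in the sources used here. The deposited values carry the name FPKM, but in each library they are whole multiples of 1 step that is the same for every gene, so they were treated as a signal, TMM-scaled CPM, without division by length. Reads were recovered from this step in 66 of 68 libraries (100.0% of values whole within 0.01), and the other 2, whose step was near 0.1, were left out of read-based tests. Founder and F1 tables were normalized separately and were not compared by level. The F1 files also held 3 lines of unassigned reads, 15.5% to 24.1% of the values, which were left out.

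Genes that reached 0.5 in 2 or more libraries were tested on log2(value + 0.1), a scale that understates the change of low genes, with limma 3.58.1 (R 4.3.3, empirical Bayes with a trend). P-values were adjusted over all genes tested by the Benjamini-Hochberg method. The 40 genes and the pathway lists were chosen with earlier results of these data known. All 40 are accounted for, and full statistics are given for genes past an adjusted p of 0.01 and 1.5 fold in at least 1 genotype, for the 10 largest mean founder changes, and for the 3 smallest p-values of the strain difference and of the control level. The GC and length correction removed a loess trend (span 0.5) from each library, with the GC content and length of the longest annotated transcript of each gene. Alternatives were edgeR 4.0.16 on the recovered reads, another scaling, pseudocount, filter or trend setting, a replicate block, and leaving out each library. The founder fits of the mean change and of the strain difference, with limma and with edgeR, were tested on simulated data first. The other fits were not. Replicates of a group differed by more than sampling noise (chi-square per degree of freedom of 1.87 at the least).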

Additional observations from a re-analysis of the deposited data

Results flagged for a closer look

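Ppp1r15a, the stress-induced partner of the eIF2 phosphatase, was the 1 gene of the pathway lists or the 40 initiation factors whose TM change differed between the 8 founder strains (limma interaction, adjusted p = 0.00481). It rose in all 8 strains, by a log2 fold change of 1.49 in 129, 1.52 in NOD, 1.59 in B6, 1.62 in CAST, 1.80 in NZO, 1.98 in A, 2.09 in WSB and 2.55 in PWK. The adjusted p was above 0.01 without any 1 of 18 of the 40 founder libraries, up to 0.0325 without PWK TM replicate 1, and was 0.0159 with edgeR. With a replicate block it was 1 (unadjusted p = 0.00761), and whether replicate numbers mark pairs could not be decided. In the F1 crosses the same test of Ppp1r15a gave an adjusted p of 0.782. No group held the 4 libraries that a search for a single outlying library needs.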

How the results depend on the processing

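Of the 13 genes given full statistics in each set, every direction was kept under every alternative except that of Eif3m, which with the GC and length correction was at -0.054 in the founders and -0.0094 in the crosses, and at -0.035 and -0.019 with the replicate block as well. Same-numbered libraries correlated at -0.532 to 0.312 (median 0.00745) in the founders and -0.334 to 0.275 (median 0.0206) in the crosses. In groups of 2 libraries the deviations mirror each other, so these correlations cannot decide whether replicate numbers mark pairs. With the replicate block, 8 genes were raised and 1 lowered in the founders, against 17 and 3. The 8 were Eif5, Eif2s2, Eif2a, Eif3c, Eif3e, Eif3j1, Eif4a2 and Eif4e, and the 1 lowered was Eif4ebp2. The other founder calls were lost with the block, and the share of all genes called with it is not given here. In the founders 6 were raised with the block and the GC correction. With the block 2 were lowered past 1.5 fold in a cross, and the founder ratio of Eif4g3 to Eif4g1 was 0.115 (permutation test, adjusted p = 0.00971). The block could not be fitted within B6 and CAST. With edgeR, 2 control levels differed between founders, 3 genes were raised past 1.5 fold in a founder strain and 2 were lowered over the crosses. Without a filter or without a trend 3 genes were raised past 1.5 fold in a founder strain, and without a trend 2 were raised and 0 lowered in a cross. Without both replicate 1 controls of A and NOD, chosen after seeing the data, 2 control levels differed.

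With 1 library left out, 15 to 18 genes were raised and 3 to 4 lowered in the founders, and 12 to 13 and 3 to 4 in the crosses. Control levels differed for 1 to 3 genes in the founders (3 without A TM replicate 2, 2 without A control replicate 1 or NOD control replicate 3) and for 0 to 1 in the crosses (0 without x129 control replicate 2, xCAST control replicate 3 or xWSB control replicate 1). Past 1.5 fold, 3 to 7 genes were raised (3 without WSB TM replicate 1 or 2 or WSB control replicate 2 or 3) and 1 to 2 lowered in a founder strain (2 without CAST control replicate 3 or NOD control replicate 3), and 3 to 11 were raised (11 without xNOD TM replicate 2, 3 without any 1 xNOD control) and 1 to 4 lowered in a cross (4 without xNOD TM replicate 2). The ratio of Eif4g3 to Eif4g1 ran from 0.062 to 0.106, and passed the test without 129 TM replicate 1 or A TM replicate 2. Where a group was left with 1 library, it was assumed to vary like the others. The causes were not tested. With 2 or 3 libraries a group, calls within a genotype depend on single libraries, and depth limits the lowest genes most.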
